A study of Arabidopsis thaliana with 12 samples.

Results

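The roots described here came from wild-type Arabidopsis seedlings that the sample titles give as treated with indole-3-acetic acid (IAA), the main natural auxin. They are compared with roots of seedlings titled mock across all genes. The methods of the study give an IAA dose of 10 nM. Both groups are wild type, grew for 4 d on half-strength MS medium without treatment and then spent 3 d on fresh medium. IAA is the only compound in the titles of the first group, and the titles of the second name none. The comparison takes 6 of the 12 libraries of the series, 3 titled IAA and 3 titled mock. The other 6 libraries are titled BiAux, a bis-indole compound, alone or with IAA. The tissue was whole root, so fewer cells of a type and less RNA per cell cannot be told apart, and nothing in the sources used here says whether the replicates of a group came from separate plates or plants. The p-values therefore measure the spread between these libraries only.

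Libraries are called by their titles, which the columns of the deposited table repeat. A separate treatment field of the labels names another treatment in 7 of the 12 libraries and in 4 of these 6. It gives BiAux with IAA for all 3 IAA libraries and BiAux for mock 3. In addition, the lists of the study carry, under BiAux against mock, the fold changes of the libraries titled IAA. Which label is right could not be settled, and every value below belongs to the libraries titled IAA.

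Auxin is perceived in the nucleus by TIR1/AFB F-box receptors, which mark Aux/IAA repressors for degradation and so release the auxin response factors (ARFs) that bind auxin response elements in promoters. Among the genes these factors usually activate early are Aux/IAA genes themselves, SAUR genes and the GH3 genes, whose products conjugate IAA to amino acids and thereby lower its free level. In roots, the hormone is best known for priming and initiating lateral roots, for root hair growth and for gravitropism.

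The deposited values are normalized counts, and they summed to between 32413978 and 32720463 in the 6 libraries. A gene was tested when it averaged at least 0.5 CPM over the 12 libraries, where CPM scales counts to library size and 1 CPM is 32.6 normalized counts. All fold changes are log2 of IAA over mock after adding 16.3 normalized counts (0.5 CPM) to every value, which understates the changes of weakly expressed genes, and each is followed by its standard error. A gene was called higher or lower when limma gave an unadjusted p under 0.05 and the log2 fold change was above 0.5 or below -0.5, and adjusted p-values are Benjamini-Hochberg values over all 19338 genes tested. No gene has fewer than 3 normalized counts in IAA 3, whereas 600 genes do so in at least 1 of the other 5 libraries, so genes almost silent in IAA 3 were not analysed here. All 22 root markers checked were present and none was at 0 in any of the 6 libraries. Of the shoot meristem and leaf markers, SPCH stood at 3 to 6 normalized counts in IAA and 1 to 6 in mock, and the other 5 were not analysed here.

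Against mock, 250 genes were called higher in IAA (1.29% of those tested) and 386 lower (2.00%). Together they made up 3.29% of the genes, and 55 of them (0.284%) also had an adjusted p under 0.05, 23 higher and 32 lower. An unadjusted limma p under 0.05, at any size of change, was found for 16.7% of the genes. The largest called rise was 1.83 and the largest called fall -2.57, while the median over all genes was 0.0. Every IAA library lay above every mock library in 12.1% of the genes tested and below every one in 11.9%. Single libraries moved these counts. The genes with an adjusted p numbered 0 without IAA 1 or IAA 2, 1 without mock 2, 13 without mock 3, 21 without IAA 3 and 635 without mock 1, while rises numbered 497 without mock 3 and falls 605 without mock 1 and 652 without IAA 3. Among the called genes, such separation held for 233 of the 250 higher and 343 of the 386 lower ones.

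**Figure D1:**
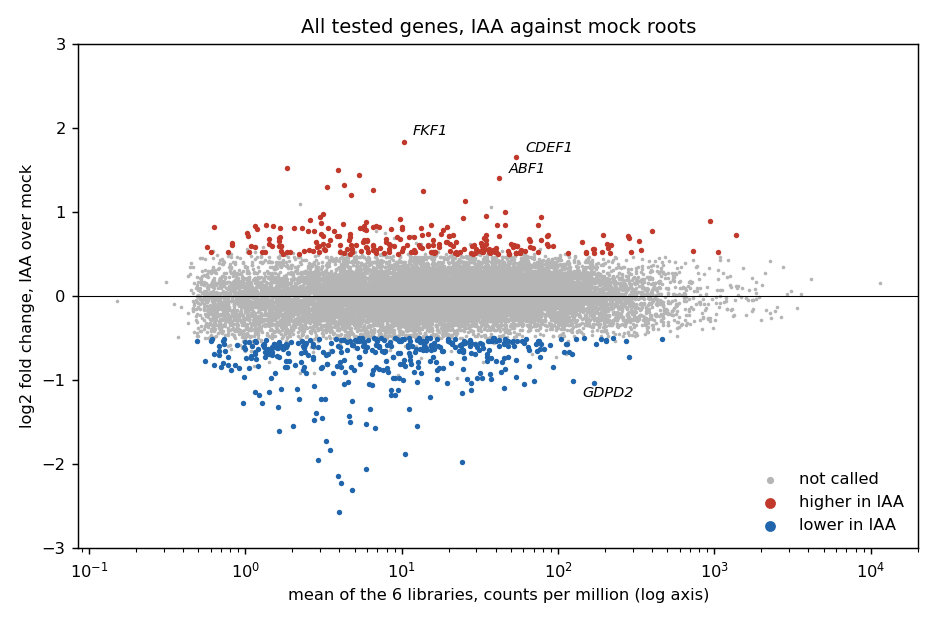
Log2 fold change of IAA over mock (vertical axis) against the mean of the 6 libraries in CPM (horizontal log axis) for the 19338 genes tested, 1 point a gene. Red points mark the 250 genes called higher in IAA, blue points the 386 called lower and grey points the rest; the falls reach further from 0 than the rises, to -2.57 against 1.83.

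The genes with the largest rises, taken among genes that averaged 5 CPM or more, did not overlap between groups and had an adjusted p under 0.05 (20 rises qualified), were led by FKF1 (AT1G68050, chromosome 1, 25508639 to 25510907), which encodes a blue-light receptor F-box protein of the evening clock. It stood at 594, 519 and 490 normalized counts in IAA 1, 2 and 3, against 113, 141 and 163 in mock 1, 2 and 3. CDEF1 (AT4G30140, chromosome 4, 14738326 to 14740742), a GDSL lipase with cutinase activity, stood at 2690, 2836 and 2470 in IAA and at 905, 693 and 933 in mock. The lowest IAA library thus lay far above the highest mock library in both genes, and the log2 fold changes were 1.83 ± 0.15 and 1.65 ± 0.12, each with an adjusted p of 0.00753. ABF1 (AT1G49720, chromosome 1, 18400003 to 18402628), a bZIP factor that binds abscisic acid response elements, had 2107, 2024 and 1874 normalized counts in IAA, against 659, 745 and 845 in mock (1.4 ± 0.11, adjusted p 0.00753). Both PR-1-LIKE (AT2G19990, 1.44 ± 0.17), annotated as a pathogenesis-related protein, and AT2G19970 (1.13 ± 0.13), of the CAP family, lie on chromosome 2. AT4G33980, uncharacterized in the annotation (1.26 ± 0.14), and AT1G11210 (1.25 ± 0.14), which has a domain of unknown function, rose as well. PDC2, a pyruvate decarboxylase of ethanolic fermentation, was the most even of these genes, with 1974, 1905 and 1884 normalized counts in IAA against 1100, 1029 and 1058 in mock (0.85 ± 0.08, adjusted p 0.0137). The remaining rises selected in this way were those of the clock genes PRR5 and TOC1, the B-box genes BBX8 (0.82 ± 0.11) and COL9 (0.74 ± 0.09), the triterpene synthase gene PEN3 (AT5G36150, 0.81 ± 0.12), the auxin carrier gene PILS7 and AT1G27020 (0.85 ± 0.13).

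The largest falls under the same conditions (27 genes in all) began with BGLU24 (AT5G28510, chromosome 5, 10480757 to 10484073), a beta-glucosidase gene, with 94, 92 and 140 normalized counts in IAA against 242, 292 and 368 in mock (-1.35 ± 0.20, adjusted p 0.0417). AT5G51440, which encodes a small HSP20-like chaperone, followed with 186, 162 and 257 in IAA and 512, 501 and 571 in mock (-1.34 ± 0.16, adjusted p 0.0307). In both, IAA 3 was the IAA library nearest to mock, yet the groups did not overlap. Among the more strongly expressed genes, GDPD2 (AT5G41080), a glycerophosphodiester phosphodiesterase that releases phosphate from membrane lipids, had 2756, 2834 and 2482 normalized counts in IAA against 6000, 5422 and 4917 in mock (-1.01 ± 0.10, adjusted p 0.0137). HSP70 (AT3G12580), a heat-inducible cytosolic chaperone, fell by the same measure (-1.01 ± 0.11, adjusted p 0.0224). Genes of carbon metabolism in this group were BMY3, of the beta-amylase family (-1.05 ± 0.14), and PCK2, a phosphoenolpyruvate carboxykinase of gluconeogenesis (-0.87 ± 0.10). Also lower were the aspartyl protease gene AT5G19110 (-1.09 ± 0.16), the clock gene LNK3 (-1.12 ± 0.16), CYP79F2 of aliphatic glucosinolate synthesis (-0.97 ± 0.14) and GSTU5, a glutathione S-transferase gene (-0.92 ± 0.12). PSK2, which encodes a precursor of the growth peptide phytosulfokine, fell by 0.88 ± 0.13 on the log2 scale. The jasmonate repressor gene JAZ9 (TIFY7), the LEA-like gene AT1G54890 and the dynein light chain-like genes AT1G52245 and AT1G78230 completed the 15, with log2 fold changes between -0.88 and -0.80. All 30 genes kept their call, by unadjusted limma p, in each of the 6 fits that omitted a library. They had been selected from these same libraries, so this gives no independent support. The adjusted p used to select them was not required in those fits.

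A further 8 genes with a mean under 5 CPM also separated completely with an adjusted p under 0.05, 3 higher and 5 lower, and were picked out after their values had been seen. MES17, an esterase that hydrolyses the methyl ester of IAA, stood at 201, 197 and 191 normalized counts in IAA against 72, 54 and 52 in mock (1.5 ± 0.14, adjusted p 0.0137). JMJD5, which encodes a jumonji-type oxygenase linked to the clock, rose by 1.32 ± 0.15, and NCED9, which encodes an enzyme of abscisic acid synthesis, by 1.3 ± 0.14. On the other side, SAG13, a senescence-associated gene, had 11, 18 and 54 normalized counts in IAA against 152, 228 and 319 in mock, the largest called fall in the table (-2.57 ± 0.37, adjusted p 0.0417). MIOX4, a myo-inositol oxygenase gene, and AT1G55230 fell by 1.61 ± 0.15 and 1.23 ± 0.15, and the other falls, AT5G09570 and IPS1, belong to groups described further on.

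For the description by function, 869 tested genes were placed in 46 hand-written lists. In all, 122 of these genes (14%) were called, but the lists were written with earlier results of these data known, so this share is not comparable with the 3.29% over all genes and is given for completeness. Each list is described by its counts and its median. Over all genes tested, 16.7% had a limma p under 0.05 at any size, 50.7% a positive log2 fold change and 49.3% a negative one.

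**Figure D2:**
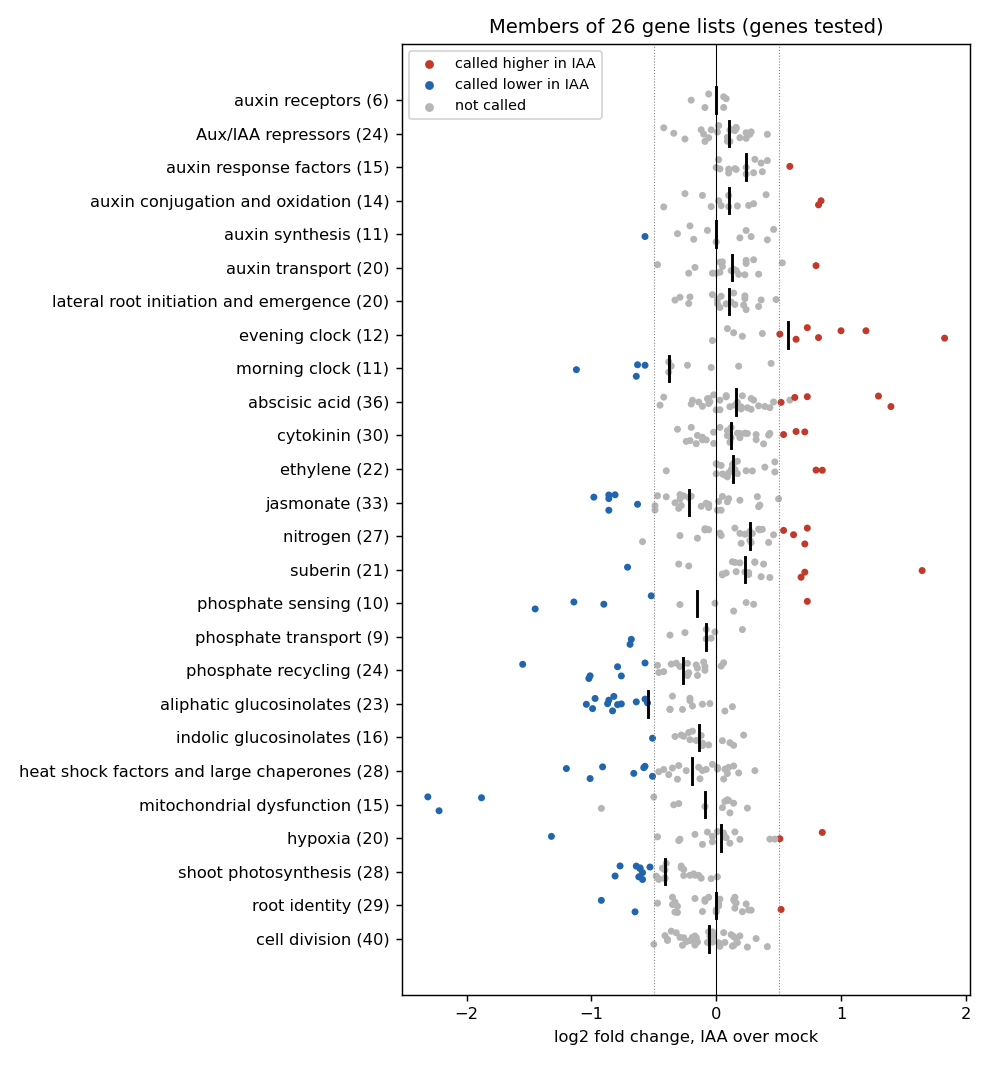
Log2 fold changes of IAA over mock (horizontal axis) for the tested members of 26 lists, with their number in brackets; each point is a gene, the black bar is the median of the list and the dotted lines mark -0.5 and 0.5. Evening clock genes lie mostly to the right (median 0.58), aliphatic glucosinolate (-0.55), shoot photosynthesis (-0.41) and morning clock genes (-0.38) to the left, and Aux/IAA genes around 0 (0.10).

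Genes of auxin perception and signalling showed few calls. Among the 6 receptor genes, 0 were called and 0 had a limma p under 0.05 at any size of change. TIR1 stood at 3356, 3010 and 3642 normalized counts in IAA against 3231, 4326 and 3991 in mock (-0.20 ± 0.12, adjusted p 0.464), with overlapping groups. Of 29 Aux/IAA repressor genes, 24 were tested and 0 were called, with a median of 0.10, and 3 had a limma p under 0.05 at any size. IAA3 had 402, 413 and 352 normalized counts in IAA and 272, 277 and 319 in mock (0.41 ± 0.12, adjusted p 0.154), and IAA14, a repressor that blocks lateral root initiation when stabilized, differed by 0.28 ± 0.09 (adjusted p 0.194). At the other end, IAA31 differed by -0.42 ± 0.17 (adjusted p 0.276). IAA1 and IAA19, both known as early auxin-induced genes, did not pass, at -0.25 ± 0.12 and -0.04 ± 0.14, and the groups overlapped for IAA19, with 196, 201 and 252 normalized counts in IAA against 206, 218 and 244 in mock. Of 31 SAUR genes, which respond early to auxin and promote cell expansion, 1 was called lower (AT3G12955, -0.51 ± 0.12) and 0 higher, and 4 had a limma p under 0.05. AT3G12955 kept its call in 3 of the 6 fits that omitted a library.

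All 15 auxin response factor genes were tested, 14 of them had a positive log2 fold change (against 50.7% of all genes) and the median was 0.24, but this rested on mock 1. Without that library the median was 0.06. ARF9 was called higher, with 2113, 2182 and 2078 normalized counts in IAA against 1190, 1421 and 1636 in mock (0.59 ± 0.12, adjusted p 0.0769), and lost its call without mock 1 (0.47). ARF7 and ARF19, the activators of lateral root initiation, differed by 0.31 ± 0.11 and 0.30 ± 0.19 (adjusted p 0.215 and 0.458).

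Both called genes of auxin conjugation belong to the GH3 family of acyl amido synthetases that join IAA to amino acids. Out of 14 tested genes of conjugation and oxidation (18 listed), they were the calls, both higher. GH3.2 (AT4G37390) stood at 1502, 1743 and 1829 normalized counts in IAA, against 1112, 740 and 983 in mock. GH3.3 (AT2G23170) stood at 246, 277 and 378 in IAA and at 121, 165 and 205 in mock. The groups did not overlap in either gene. Their log2 fold changes were 0.84 ± 0.15 and 0.82 ± 0.21, with adjusted p-values of 0.0642 and 0.129, and they were 0.97 and 0.64 without mock 1. GH3.5 differed by 0.40 ± 0.10, GH3.6 by 0.17 ± 0.11 and GH3.1 by 0.02 ± 0.16, none of them called. The 500 bases upstream of both called genes hold the auxin response element TGTCTC, shown in capitals in the stretches below (5′ to 3′ on the strand of the gene, RefSeq TAIR10.1, chr4:17579444-17579509 on the plus strand for GH3.2 and chr2:9866643-9866708 on the minus strand for GH3.3), because this is the promoter word that ARFs are known to bind.
GH3.2: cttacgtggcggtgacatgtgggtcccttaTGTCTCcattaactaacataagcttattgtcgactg
GH3.3: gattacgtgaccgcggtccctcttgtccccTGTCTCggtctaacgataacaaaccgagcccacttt

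The word lies 144 bases before the annotated start of GH3.2 and 116 before that of GH3.3. Read on both strands, it occurs upstream of 22.0% of the genes called higher, 22.3% of those called lower and 21.3% of all 19267 genes whose upstream sequence was read. The variant TGTCGG, with higher affinity, occurs in 8.4%, 7.45% and 8.3%. A match is a description of letters and says nothing about binding.

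**Figure D3:**
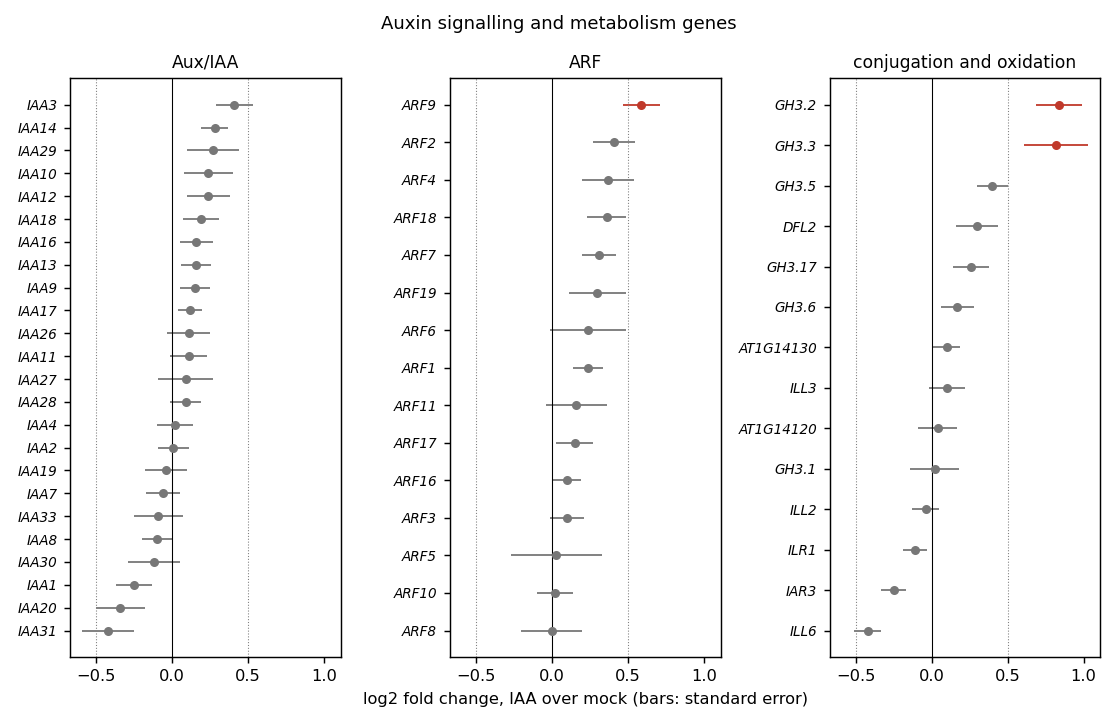
Log2 fold changes of IAA over mock (horizontal axis) with their standard errors (bars) for tested Aux/IAA genes, ARF genes and genes of auxin conjugation and oxidation, 1 gene a row; dotted lines mark -0.5 and 0.5 and red marks genes called higher. ARF9 (0.59), GH3.2 (0.84) and GH3.3 (0.82) are the red points, and the Aux/IAA genes lie between -0.42 and 0.41.

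PILS7 (AT5G65980), a carrier of the PIN-LIKES family that acts at the endoplasmic reticulum, was the 1 call among 20 tested transport genes, with 231, 244 and 253 normalized counts in IAA against 141, 124 and 134 in mock (0.80 ± 0.12, adjusted p 0.0417). PIN2 and AUX1, an efflux and an influx carrier of the root tip, differed by -0.17 ± 0.14 and 0.12 ± 0.10. In auxin synthesis, ASA1, the first enzyme of the tryptophan branch, was the 1 call of 11 tested genes, at 848, 773 and 927 in IAA against 1034, 1313 and 1499 in mock (-0.57 ± 0.14, adjusted p 0.123). None of the 20 tested genes of lateral root initiation and emergence passed both limits, and 3 had a limma p under 0.05 at any size. LBD29, a target of ARF7 and ARF19, was nearest, with 197, 201 and 193 in IAA and 145, 113 and 154 in mock (0.48 ± 0.14, adjusted p 0.155). LBD16 differed by 0.15 ± 0.12, and GATA23, the founder cell marker, was weakly expressed with overlapping groups (34, 32 and 26 in IAA against 54, 27 and 45 in mock).

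FKF1 and 6 other evening clock genes were higher in IAA. The circadian clock of plants couples morning factors (CCA1, LHY, RVE proteins and their LNK partners) with evening genes that these factors control through the evening element, and with PRR repressors that follow one another through the day. Of 12 evening genes tested, 7 were called higher and 0 lower, 8 had a limma p under 0.05, and the median was 0.58 (0.54 without mock 1, where 7 were called as well). FKF1 led, as given above. PRR3 stood at 221, 211 and 226 normalized counts in IAA against 64, 83 and 119 in mock (1.2 ± 0.19, adjusted p 0.0552), and PRR5 at 1958, 2024 and 1991 against 884, 977 and 1107 (1.00 ± 0.10, adjusted p 0.0137). TOC1, the evening repressor of CCA1 and LHY, had 3620, 3506 and 3349 in IAA and 1910, 2086 and 2322 in mock (0.73 ± 0.09, adjusted p 0.0343). In all of these genes the 3 IAA libraries were close to each other and every mock library was lower. ELF4 and LUX, parts of the evening complex, rose by 0.82 ± 0.13 and 0.51 ± 0.09, and GI, which stabilizes ZTL and works with FKF1, by 0.64 ± 0.11. The third subunit of the evening complex, ELF3, differed by 0.37 ± 0.12 (adjusted p 0.189), and CHE, ZTL, LKP2 and BOA by -0.03 to 0.21, all below the limit for a call.

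The evening element, AAAATATCT, is printed here with its surroundings for 4 of the called clock genes, within 500 bases upstream, in capitals and on the strand of the gene, where AGATATTTT is the same word on the other strand (RefSeq TAIR10.1: FKF1 chr1:25508423-25508491 plus, PRR5 chr5:8358695-8358763 minus, TOC1 chr5:24674782-24674850 plus, LUX chr3:17182959-17183027 plus).
FKF1: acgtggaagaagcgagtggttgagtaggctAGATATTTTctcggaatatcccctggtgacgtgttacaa
PRR5: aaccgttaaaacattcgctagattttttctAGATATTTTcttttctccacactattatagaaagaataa
TOC1: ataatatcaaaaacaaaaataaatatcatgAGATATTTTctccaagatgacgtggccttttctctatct
LUX: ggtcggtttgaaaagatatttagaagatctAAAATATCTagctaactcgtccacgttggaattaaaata

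The word starts 186, 187, 151 and 53 bases before the annotated gene start in these promoters, and FKF1 and PRR5 each have 2 matches. It was found upstream of 5 of the 12 evening genes (41.7%), of 0 of the 11 morning genes, of 15.6% of all genes called higher, 6.38% of those called lower and 4.47% of all genes read. The shorter CCA1 binding site AAAAATCT was found upstream of 13.6% of the genes called higher and 12.4% of all.

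**Figure D4:**
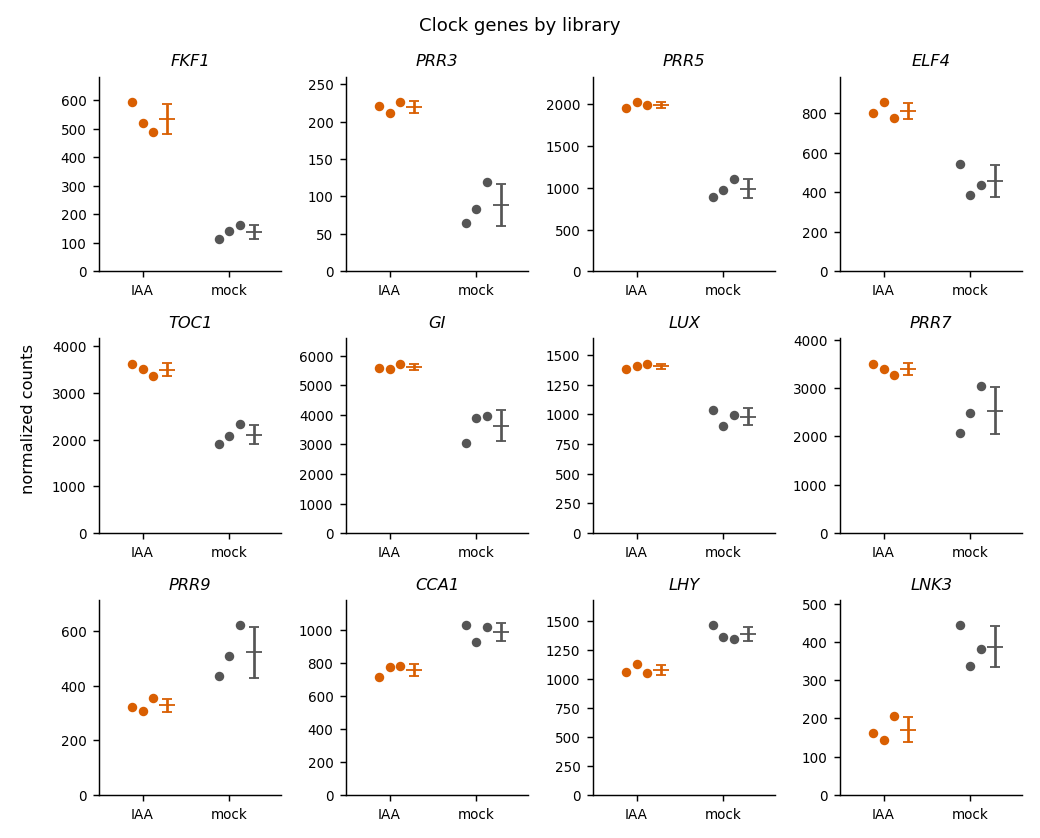
Normalized counts (vertical axes, from 0) of 12 clock genes in the 3 IAA libraries (orange, left) and the 3 mock libraries (grey, right), with the mean and SD beside the points (n = 3 each). FKF1, PRR3, PRR5, ELF4, TOC1, GI and LUX were called higher in IAA, PRR9 and LNK3 lower, and PRR7, CCA1 and LHY were not called although their groups do not overlap.

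Of the morning genes, 4 of 11 were called lower, 0 higher, with a median of -0.38 (-0.32 without mock 1). LNK3 (AT3G12320) had 162, 143 and 206 normalized counts in IAA against 443, 336 and 382 in mock. LNK2 (-0.57 ± 0.08, adjusted p 0.0417), LNK4 (-0.64 ± 0.11) and PRR9 (-0.63 ± 0.14) were the other calls. All 4 encode proteins of the morning side, coactivators of RVE8 in the case of the LNK genes and an early daytime repressor in that of PRR9. The core genes CCA1, at 713, 774 and 782 in IAA and 1025, 923 and 1013 in mock, and LHY, at 1060, 1125 and 1047 against 1459, 1361 and 1339, were lower in every IAA library but did not reach the fold limit (-0.38 ± 0.09 and -0.36 ± 0.08, adjusted p 0.116 and 0.105). PRR7 (0.44 ± 0.13, adjusted p 0.173) and AT5G52660 (0.18 ± 0.10, adjusted p 0.384) had a positive sign and were not called.

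Clock output genes, 20 tested, held 4 rises and 3 falls. GRP7, an RNA-binding protein gene with an evening peak and one of the most abundant transcripts to change, had 41132, 38165 and 39102 normalized counts in IAA against 16879, 23153 and 24781 in mock (0.89 ± 0.15, adjusted p 0.0588). COR27 (0.94 ± 0.14), AT4G33980 and COL9 rose too, while RVE7 (-0.69 ± 0.09, adjusted p 0.0354), RVE1 (-0.63 ± 0.11) and CDF1 (-0.54 ± 0.14) fell, CDF1 only with mock 1 included. RVE1 and RVE7 are morning-expressed MYB-like factors outside the core loop. The hour at which each library was harvested is not given in the sources used here.

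Of 28 tested heat shock factors and large chaperones, 7 were called lower and 0 higher, with a median of -0.19. HSP70 led the chaperones with 1478, 1433 and 1575 normalized counts in IAA against 3562, 2683 and 2924 in mock. MBF1C, a coactivator of the heat response, stood at 264, 324 and 271 in IAA and at 923, 506 and 665 in mock (-1.2 ± 0.20, adjusted p 0.0573). HSP101, the disaggregase needed for acquired thermotolerance, had 397, 388 and 415 against 603, 581 and 635 (-0.58 ± 0.09, adjusted p 0.0561). These groups did not overlap, and the IAA libraries were tighter than the mock libraries in all 3 genes. HSFA2, the heat-induced factor that prolongs the response, fell by 0.91 ± 0.25 (adjusted p 0.141) and HSA32 by 0.57 ± 0.13 (adjusted p 0.101). HSFA7B fell by 0.66 ± 0.23 (adjusted p 0.209) and HSP90.1 by 0.51 ± 0.15 (adjusted p 0.152). Each of these 2 kept its call in 4 of the 6 fits that omitted a library. HSFA7B was weakly expressed, with 19, 8 and 18 normalized counts in IAA against 37, 22 and 41 in mock. The constitutive factors HSFA1A, HSFA1B and HSFA1D, which start the response, differed by 0.14 ± 0.12, 0.31 ± 0.10 and 0.07 ± 0.09, none called. HSFA1B was higher in every IAA library than in every mock library (adjusted p 0.198). Constitutive HSP90.2 differed by -0.11 ± 0.13. Of 12 small heat shock protein genes, 5 could be tested and AT5G51440 was the 1 called. The heat shock element, read as GAA, TTC and GAA with 2 free bases between the units, was found upstream of 6 of the 28 genes (21.4%), of 2.39% of all genes called lower, 1.6% of those called higher and 0.846% of all.

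Mitochondrial stress was represented by a few genes with very large falls. When respiration is impaired, NAC factors such as ANAC017 and ANAC013 activate a small regulon that includes alternative oxidases. Of 15 such genes tested, 3 were called lower and 0 higher, and 3 had a limma p under 0.05. AOX1D, an alternative oxidase gene, had 21, 30 and 80 normalized counts in IAA against 166, 288 and 351 in mock (-2.31 ± 0.37, adjusted p 0.0561). AT5G09570, of the Cox19-like CHCH family, had 21, 30 and 62 against 159, 285 and 241 (-2.22 ± 0.30, adjusted p 0.0395). AT2G21640, annotated as a marker of the oxidative stress response, had 87, 120 and 209 against 359, 571 and 698 (-1.88 ± 0.31, adjusted p 0.0573). In all 3, IAA 3 was the highest IAA library and mock 1 the lowest mock library, and still the groups did not overlap. The other alternative oxidase gene tested in this list, AOX1A, did not differ by more than its error (2491, 2696 and 3050 in IAA, 3012, 2766 and 2954 in mock, -0.09 ± 0.10), nor did ANAC017 pass (0.14 ± 0.08). The list's median was -0.09, beside 0.0 over all genes, and 5 genes were lower without mock 1. The mitochondrial dysfunction motif, read as CTTG, 5 free bases, CA, 1 free base and G, is shown in capitals in the AT2G21640 promoter, where it starts 51 bases before the gene (RefSeq TAIR10.1, chr2:9254297-9254369, plus strand), as an example of the word these NAC factors are known to bind.
AT2G21640: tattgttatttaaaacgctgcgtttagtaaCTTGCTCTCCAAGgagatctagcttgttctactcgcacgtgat

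It was found upstream of 4 of these 15 genes (26.7%), of 6.12% of all genes called lower, 2.4% of those called higher and 2.89% of all genes read. Outside this list, DOGT1, a glycosyltransferase gene, stood at 29, 25 and 51 normalized counts in IAA against 109, 270 and 282 in mock (-2.14 ± 0.34, adjusted p 0.0558). It is 1 of 47 tested UDP-glycosyltransferase genes, of which 3 were called higher and 2 lower, with a median of 0.15. The rises were those of UGT73B3 (0.68 ± 0.12), UGT84A1 (0.52 ± 0.20) and UGT73B2 (0.51 ± 0.09). AT2G04050 belongs to none of the lists or families and was named outside the rule for named genes. It had 194, 152 and 716 in IAA against 650, 1444 and 1617 in mock (-1.98 ± 0.54, adjusted p 0.145), with IAA 3 above mock 1, so its groups overlapped. Glutathione S-transferase genes had 4 of 40 called lower and 0 higher (median -0.12, and 7 lower with a median of -0.05 without mock 1). These were GSTU3 (-0.82 ± 0.22), GSTU20 (-0.64 ± 0.14) and GSTU6 (-0.52 ± 0.13) beside GSTU5. GSTU3 was weakly expressed (12, 14 and 21 in IAA against 28, 39 and 55 in mock, adjusted p 0.137). GSTU6 (adjusted p 0.127) kept its call in 3 of the 6 fits that omitted a library.

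Several genes of the phosphate starvation response were lower. When phosphate is scarce, PHR1 and its homologue PHL1 activate SPX genes, the noncoding RNAs IPS1 and AT4 that sequester miR399, phosphate transporters, and enzymes that recycle phosphate from lipids and nucleic acids. The factors themselves did not fall, with PHR1 at 1767, 1799 and 1770 normalized counts in IAA and 1531, 1594 and 1709 in mock (0.14 ± 0.08, not called). Of 10 sensing genes, 4 were lower. IPS1 had 43, 43 and 53 normalized counts in IAA against 131, 143 and 194 in mock (-1.45 ± 0.17, adjusted p 0.0297). SPX3 had 18, 19 and 32 against 61, 68 and 80 (-1.14 ± 0.19, adjusted p 0.0573), and SPX1 had 1093, 1018 and 796 against 1779, 1480 and 2242 (-0.90 ± 0.17, adjusted p 0.0699). In these 3 genes every IAA library was below every mock library. AT4 (-0.52 ± 0.20, adjusted p 0.251) overlapped between groups. PHO2, the ubiquitin conjugase that miR399 targets, was called higher (8202, 7637 and 7341 in IAA against 2895, 5525 and 6316 in mock, 0.73 ± 0.25), and this rested on mock 1, without which the change was 0.38 and not called.

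Among 24 phosphate recycling genes, 6 were called lower, 0 higher, and 22 had a negative log2 fold change (49.3% of all genes did), with a median of -0.26 with or without mock 1. PEPC1 (AT1G17710), a phosphatase of phosphocholine and phosphoethanolamine, had 19, 24 and 31 normalized counts in IAA against 74, 94 and 152 in mock (-1.55 ± 0.24, adjusted p 0.0539). PS2, a related phosphatase, had 248, 237 and 296 against 439, 558 and 655 (-1.02 ± 0.16, adjusted p 0.0539). The diesterase genes GDPD2 and SRG3 (-0.79 ± 0.11, adjusted p 0.0414), the glycerol-3-phosphate carrier gene G3PP1 (-0.76 ± 0.11, adjusted p 0.0416) and the acid phosphatase gene PAP17 (-0.57 ± 0.09) were the others. None of these 6 overlapped between groups. Of 9 tested transporter genes, the weakly expressed PHT1;5 (-0.69 ± 0.20) and PHT1;8 (-0.68 ± 0.19) were lower, whereas PHT1;1, a main uptake carrier, overlapped (9994, 10579 and 7846 in IAA against 13298, 9070 and 8140 in mock) and PHO1, which loads phosphate into the xylem, differed by 0.21 ± 0.13. The sequence GNATATNC, which PHR1 binds, is shown in capitals upstream of a sensing and a recycling gene, 90 bases before SPX3 and 362 before PEPC1 (RefSeq TAIR10.1, chr2:18606290-18606357 plus and chr1:6092352-6092419 minus).
SPX3: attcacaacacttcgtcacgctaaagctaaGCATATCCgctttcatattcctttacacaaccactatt
PEPC1: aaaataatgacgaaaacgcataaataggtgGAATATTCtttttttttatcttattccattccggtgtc

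It was found upstream of 12 of the 24 recycling genes, 4 of the 10 sensing genes, 14.1% of all genes called lower, 14% of those called higher and 10.8% of all genes read.

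Aliphatic glucosinolate genes made up the list with the most falls. These sulfur-rich defence compounds of the cabbage family are built from methionine by chain elongation (BCAT4, MAM, IPMI and IMD enzymes in the plastid, supplied by the BAT5 carrier), formation of the core (CYP79F, CYP83A1, GSTU20, a glucosyltransferase) and side chain changes. Of 23 tested genes, 12 were called lower and 0 higher, with a median of -0.55, and 13 without mock 1, with a median of -0.69. Chain elongation held 6 of them. IPMI1 had 515, 502 and 666 normalized counts in IAA against 894, 1106 and 1433 in mock (-0.99 ± 0.18, adjusted p 0.0642), IMD1 had 1473, 1454 and 1614 against 2284, 2579 and 3377 (-0.83 ± 0.14, adjusted p 0.0573), and BCAT4 had 324, 317 and 561 against 501, 886 and 1208 (-1.04 ± 0.32, adjusted p 0.177). IPMI1 and IMD1 were separated between groups, while BCAT4 was not, since IAA 3 exceeded mock 1. IPMI2 (-0.86 ± 0.14), MAM1 (-0.79 ± 0.28) and MAM3 (-0.57 ± 0.25) were the other 3, and BAT5 fell by 0.55 ± 0.15.

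In core synthesis, CYP79F2, which makes the aldoxime of long-chain substrates, had 683, 708 and 746 normalized counts in IAA against 1152, 1423 and 1696 in mock (-0.97 ± 0.14, adjusted p 0.0417). CYP83A1 (-0.87 ± 0.25), AT2G31790, a UDP-glycosyltransferase (-0.76 ± 0.14), and GSTU20 fell with it, as did FMO GS-OX1, which oxidizes the side chain (-0.82 ± 0.18). Mock 1 was the lowest mock library in all 12 called genes. MYB28, the main regulator of the aliphatic branch, differed by -0.21 ± 0.16 (663, 660 and 691 in IAA, 602, 814 and 955 in mock) and was not called. The indolic branch, which starts from tryptophan and shares precursors with one route to IAA, had 1 of 16 tested genes called lower. This was UGT74B1, which serves both branches (-0.51 ± 0.09) and kept its call in 3 of the 6 fits that omitted a library. CYP79B2 and CYP83B1 differed by -0.33 ± 0.11 and -0.12 ± 0.09, and MYB34 by -0.06 ± 0.11.

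Among 33 tested jasmonate genes, 6 were called lower and 0 higher, 22 had a limma p under 0.05 (16.7% of all genes did) and the median was -0.22. JAZ9 and JAZ10 encode repressors that jasmonate itself induces, with JAZ10 at 156, 198 and 273 normalized counts in IAA against 360, 416 and 483 in mock (-0.98 ± 0.20, adjusted p 0.0823). AOC1 encodes an enzyme of synthesis (-0.86 ± 0.21), and JRG21 and AT2G38240 encode related oxygenases of the family that inactivates the hormone (-0.63 ± 0.22 and -0.86 ± 0.19). VSP2, a storage and defence protein used as a marker of the response, had 265, 214 and 201 in IAA and 406, 391 and 423 in mock (-0.81 ± 0.13, adjusted p 0.0539). Every one of these groups was separated except that of JRG21. The receptor gene COI1 had 1672, 1710 and 1658 in IAA against 1607, 1662 and 1707 in mock (0.02 ± 0.08), AOS differed by 0.01 ± 0.09 and JAZ1 by 0.04 ± 0.08, while OPR3 came just short of the limit (-0.49 ± 0.10, adjusted p 0.0939). In the salicylate, pipecolate and defence list, the receptor kinase gene FRK1 was higher (0.69 ± 0.15) and CYP82C2 lower (-0.88 ± 0.23) of 21 tested.

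Of 36 tested abscisic acid genes, 5 were called higher and 0 lower (median 0.16), and 7 were called higher without mock 1. They included enzymes of synthesis and targets. NCED9 had 156, 173 and 157 normalized counts in IAA against 49, 66 and 54 in mock, and NCED3, the main drought-induced dioxygenase, had 1705, 1669 and 1232 against 1193, 1003 and 982 (0.52 ± 0.14, adjusted p 0.144). RD29A, a classical target, had 1304, 1354 and 1569 in IAA and 990, 792 and 755 in mock (0.73 ± 0.13, adjusted p 0.0595). These and ABF1 were separated between groups. RAB18 was near the lower end of detection (25, 31 and 52 against 28, 9 and 16, adjusted p 0.284). The phosphatase genes ABI1 and HAI1, which abscisic acid induces, differed in opposite directions without being called (0.20 ± 0.07 and -0.42 ± 0.11).

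The suberin list, which covers the waxy barrier of the endodermis and periderm, had 3 of 21 tested genes higher and 1 lower, with a median of 0.23. CDEF1 degrades rather than builds the polymer. MYB39, a regulator of suberin genes in the endodermis, had 380, 397 and 414 normalized counts in IAA against 260, 206 and 261 in mock (0.68 ± 0.12, adjusted p 0.0642). MYB9 rose by 0.71 ± 0.16, and MYB41, a stress-induced regulator of the same pathway, fell by 0.71 ± 0.14. The enzymes of monomer synthesis GPAT5, CYP86A1 and ASFT differed by 0.19 ± 0.10, 0.16 ± 0.10 and 0.26 ± 0.14, none called. Casparian strip genes, 12 tested, had 0 calls, 2 with a limma p under 0.05 and a median of 0.15. Their median was 0.42 without mock 1, again with 0 calls.

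Genes of nitrogen uptake and assimilation had 4 rises and 0 falls among 27 tested (median 0.27). NIR1, the nitrite reductase, had 8045, 8271 and 7923 normalized counts in IAA against 5498, 5130 and 5133 in mock (0.62 ± 0.08, adjusted p 0.0334). AMT1;3, an ammonium transporter, had 3535, 3734 and 2973 against 2434, 2128 and 1703 (0.71 ± 0.14, adjusted p 0.0797), and NRT1.1, the nitrate transceptor, had 28191, 28823 and 26856 against 24559, 16937 and 17055 (0.54 ± 0.15, adjusted p 0.15). The groups were separated in all 3, with mock 1 nearest to IAA. GLT1, the NADH-dependent glutamate synthase, was also called (0.73 ± 0.19) but not without mock 1 (0.49). NLP7, the nitrate sensor factor, and nitrate reductase genes NIA1 and NIA2 differed by 0.29 ± 0.07, 0.34 ± 0.09 and 0.27 ± 0.13 without passing the limit.

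In the other nutrient lists, the borate exporter genes BOR1 (2733, 2635 and 2508 in IAA against 1482, 1682 and 1827 in mock, 0.66 ± 0.10, adjusted p 0.0417) and BOR2 (0.56 ± 0.10) were 2 of 5 boron genes tested, and BOR2 lost its call without mock 1. In the iron list, with 29 tested, AT1G74770, annotated as a zinc ion binding protein, and NAS4, a nicotianamine synthase, rose (0.62 ± 0.09 and 0.83 ± 0.16). The ferritin gene FER2 fell by 0.64 ± 0.14. IRT1, the iron uptake carrier, was called lower (-0.59 ± 0.26) with overlapping groups, mock 1 being the highest library at 3082 normalized counts, and without mock 1 the change was -0.27 and not called. SKOR, which releases potassium into the xylem, was higher (0.54 ± 0.13), the 1 call among 13 potassium genes. Of 23 sulfur genes, BGLU30, also known as DIN2 from sugar starvation, was lower (-1.12 ± 0.25). Without mock 1, the sulfur list had 2 genes higher and 5 lower, the iron list 4 and 1 and the potassium list 2 and 1.

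Among the other hormones, ethylene had 2 of 22 tested genes higher, ACS5, an enzyme of its synthesis, at 407, 441 and 403 normalized counts in IAA against 295, 211 and 203 in mock (0.80 ± 0.15, adjusted p 0.0702), and EBF2, an F-box gene that restrains EIN3, at 3525, 3233 and 2598 against 1393, 1752 and 2037 (0.85 ± 0.16, adjusted p 0.0677). Both kept their calls without mock 1. Cytokinin had 3 of 30 higher, all of synthesis. CYP735A2, which makes trans-zeatin, rose by 0.64 ± 0.12, while IPT3 (0.71 ± 0.19) and IPT7 (0.54 ± 0.16) lost their calls without mock 1. The response regulators ARR5 and ARR7 differed by 0.23 ± 0.09 and 0.25 ± 0.15. In the strigolactone and karrikin list, the repressor gene SMAX1 rose (0.69 ± 0.14), SMXL8 was called higher (0.81 ± 0.31) but not without mock 1, and the receptor gene D14 fell by 0.53 ± 0.09. SOB7, a cytochrome P450 that inactivates brassinosteroids, was the 1 called of 19 brassinosteroid genes (0.62 ± 0.15). Gibberellin genes, 22 tested, had 0 calls, and 5 had a limma p under 0.05.

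Hypoxia genes did not move as a group, with 2 of 20 tested higher and 1 lower and a median of 0.03. The rises were those of both pyruvate decarboxylase genes, PDC2 and PDC1, with PDC1 at 1898, 1981 and 2306 normalized counts in IAA against 1519, 1379 and 1412 in mock (0.51 ± 0.10, adjusted p 0.0712). The fall was that of HRE2, a hypoxia-responsive ethylene response factor, at 14, 15 and 44 against 62, 87 and 94 (-1.32 ± 0.28, adjusted p 0.0939). The marker genes ADH1, LBD41 and SUS4 differed by -0.03 ± 0.17, -0.07 ± 0.13 and 0.11 ± 0.12. In the list of water deficit and sugar starvation, 3 of 22 genes were lower. ERD5, the proline oxidase, had 7548, 6713 and 6621 in IAA against 10447, 13069 and 11330 in mock (-0.73 ± 0.11, adjusted p 0.0417), and EXO, a growth-related extracellular protein gene, fell by 0.72 ± 0.15.

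**Figure D5:**
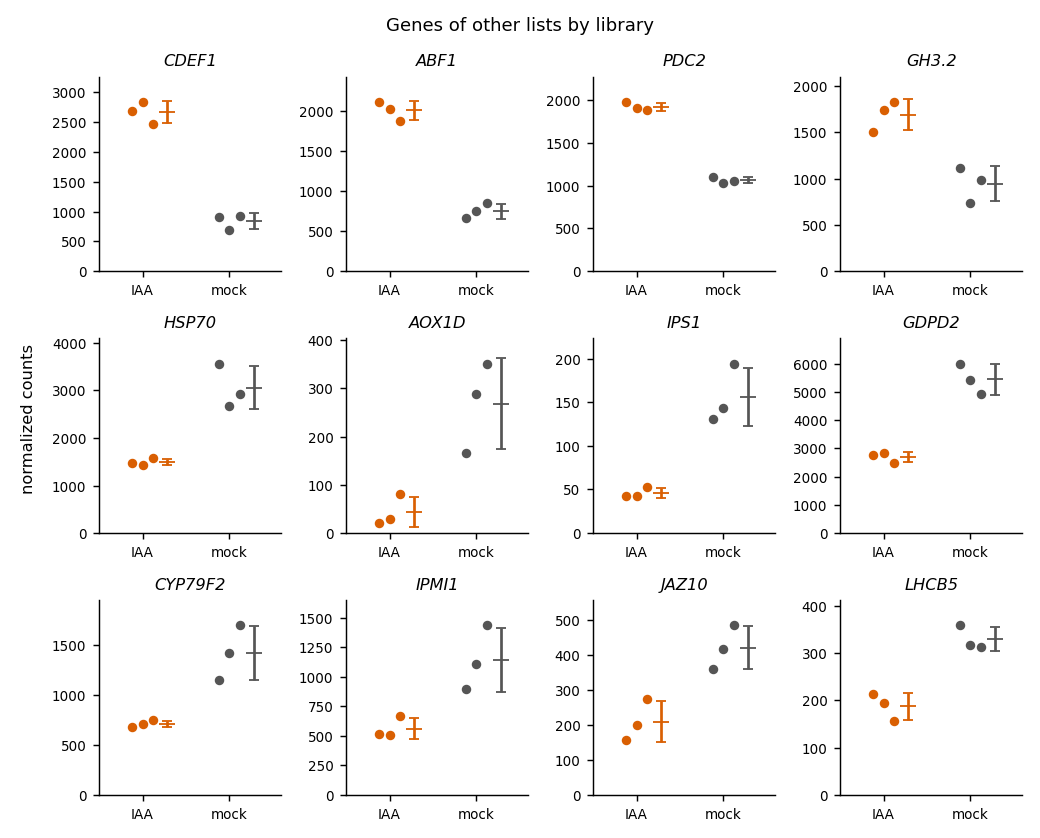
Normalized counts (vertical axes, from 0) of 12 genes from other lists in the 3 IAA libraries (orange, left) and the 3 mock libraries (grey, right), with the mean and SD beside the points (n = 3 each). CDEF1, ABF1, PDC2 and GH3.2 were called higher in IAA and the other 8 lower; the groups do not overlap in any of the 12 panels.

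Of 40 cell division genes, 0 were called and 4 had a limma p under 0.05, against 16.7% of all genes (median -0.06). Without mock 1 the median was -0.2 and 2 genes were lower. Root hair genes, 22 tested, had 0 calls and 3 such p-values. Of 29 expansin and xyloglucan enzyme genes, which loosen cell walls, 4 were lower and 0 higher, XTH5 (562, 504 and 613 normalized counts in IAA against 845, 961 and 777 in mock, -0.61 ± 0.12), EXPA10 (-0.61 ± 0.21), XTH23 (-0.56 ± 0.15, not called without mock 1) and XTH26 (-0.53 ± 0.14). Without mock 1, 6 genes of this list were lower. Aquaporin genes, 24 tested, had 0 calls and 0 with a p under 0.05, and 18 sugar transport genes had 0 calls and 3 such p-values. CHS, the first enzyme of flavonoid synthesis, was the 1 call of 10 flavonoid genes, with 925, 1073 and 778 in IAA against 1483, 1604 and 1241 in mock (-0.64 ± 0.14, adjusted p 0.0984). Cytosolic ribosomal protein genes had 0 of 53 called, with a median of -0.25 (-0.34 without mock 1). Of these, 48 had a negative log2 fold change (49.3% of all genes did) and 23 a limma p under 0.05 (16.7% of all genes). Their summed counts were 277704, 265465 and 323601 in IAA against 309437, 374456 and 365543 in mock, so that IAA 3 and mock 1 overlapped.

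Photosynthesis genes of green tissue were detected at low levels. Of 28 tested, 9 were called lower, 0 higher, and 27 had a negative log2 fold change (49.3% of all genes did), with a median of -0.41. LHCB5, an antenna protein of photosystem II, had 213, 194 and 156 normalized counts in IAA against 359, 317 and 313 in mock (-0.77 ± 0.14, adjusted p 0.0642), and LHCB6 had 131, 123 and 113 against 294, 201 and 195 (-0.81 ± 0.17, adjusted p 0.0882). Both were separated. Without mock 1, 5 were called and the median was -0.29. The summed counts of the 28 genes were 9264 to 11951 in IAA and 12448 to 16506 in mock, without overlap. Of 10 green shoot markers, 9 were in the table, 3 were lower (LHCB2.1, LHCA1 and LHCA3), and their sums were 4433, 4623 and 3460 in IAA against 5776, 4787 and 4910 in mock. None of the 22 root markers was called, 10 of them had a negative log2 fold change, and their sums were 484337, 481445 and 400201 in IAA against 441541, 390270 and 398626 in mock. The part of green tissue in the other results was not tested. In the list of root identity genes, HKT1 and BRN2 were lower and AT5G66390 higher of 29 tested. BRN2 was not called without mock 1, and AT5G66390 overlapped between groups (adjusted p 0.218).

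Outside the hand-written lists, families were taken by symbol. The share called over all genes tested was 3.29%, and no family was tested against it. Among 149 cytochrome P450 genes, 5 were higher and 8 lower (9 and 15 without mock 1), with CYP71A20 (353, 390 and 347 normalized counts in IAA against 615, 599 and 673 in mock, -0.77 ± 0.10, adjusted p 0.0363) among the falls. B-box factors, regulators of light and clock responses, had 2 higher (BBX8, COL9) and 2 lower of 20, BBX28 at 292, 307 and 294 in IAA against 586, 463 and 542 in mock (-0.79 ± 0.11, adjusted p 0.0417) and BBX30 (-0.96 ± 0.19). WRKY factors had 1 higher, WRKY42 (0.92 ± 0.16), and 1 lower, WRKY30 (-0.62 ± 0.19), of 61, and without mock 1 there were 4 lower. Of 72 NAC factors, 1 was higher and 2 lower (5 and 6 without mock 1), and of 76 MYB factors 4 were higher and 2 lower. LBD factors, which include the lateral root regulators, had 0 calls of 21 and 5 with a limma p under 0.05. Among 79 ABC transporter genes, ABCB15 was called higher (14341, 14282 and 10726 in IAA against 9448, 7879 and 7648 in mock, 0.65 ± 0.14). ABCA2 was also called higher (0.57 ± 0.22), but not without mock 1 (0.30). ABCG39 was called lower (-0.58 ± 0.22) with overlapping groups and kept its call in 1 of the 6 fits that omitted a library. Without mock 1, 2 genes of this family were higher and 5 lower. Of 11 class III peroxidase genes, AT5G64120 (0.71 ± 0.17) and AT5G66390 (0.52 ± 0.19) were higher and AT2G41480 lower (-0.54 ± 0.13). AT5G66390 overlapped between groups (10906, 12245 and 10354 in IAA against 10682, 6921 and 6268 in mock, adjusted p 0.218). It kept its call in 3 of the 6 fits that omitted a library, and AT2G41480 in 4. Without mock 1 there were 3 peroxidase genes in each direction.

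The 3 IAA libraries did not contribute evenly. Among the genes called higher, IAA 3 was the IAA library nearest to mock in 165 of 250, and among those called lower in 240 of 386. In mock, the omission of library 1 changed the number of adjusted p-values most. Without mock 1, 308 genes were higher (1.59%) and 605 lower (3.13%). An adjusted p under 0.05 with the same fold limit held for 635, among them all 55 found with mock 1. Calls depended on other libraries too. Of 136 named or called list genes, 17 lost their call without mock 1, 17 without mock 3, 15 without IAA 2 and 14 without mock 2. For the lists, counts after an omission are given for mock 1 only. Of the genes called with all libraries, 189 of 250 higher and 309 of 386 lower ones were also called without mock 1. The 61 higher genes that were not had a median transcript length of 2948 bases, against 1757 for the 189 that were and 1740 for all genes tested, and GLT1, PHO2 and BOR2 are among them. Genes called lower had a median length of 1333 bases. In lists with few calls, omitting mock 1 left 1 higher and 1 lower in auxin synthesis, 1 and 1 in auxin transport, 1 and 0 in lateral root genes, 0 and 2 in gibberellin, SAUR and flavonoid genes, 2 and 2 in hypoxia, 4 and 1 in nitrogen, 2 and 3 in defence, 1 and 4 in root identity, and 0 and 1 in aquaporin genes. Over the 6 fits that each omitted a library, 120 higher and 202 lower genes kept their call every time.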

How the data were processed

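Poly(A) RNA of wild-type roots was sequenced by the study (100-base paired reads). Per the methods, the authors used FastQC, Trimmomatic, STAR on TAIR10 with Araport11, HTSeq, and edgeR for normalization, whereas the processing notes of the authors list CASAVA 1.4, FastQC, HISAT2, HTSeq and edgeR. The authors deposited log2 values of normalized counts plus 1 for 20814 genes, and reads per library cannot be recovered, so tests made for counts were not used and counting error is unknown. In preparing the analysis linear values had been assumed.

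Values were returned to normalized counts and filtered at a mean of 0.5 CPM over the 12 libraries. After adding 16.3 and taking log2, the 6 libraries were compared in R 4.3.3 by limma 3.58.1 (lmFit, eBayes with trend) without covariates. Exact permutation of 3 against 3 libraries cannot go below p = 0.1. The members and gene lists were chosen with earlier results of these data known. Named genes were the 15 largest rises and falls under the conditions given in the text, called and leading members of the lists, and called members of the families. AT2G04050 was named outside this rule. Promoter words were read in 500 bases upstream of 19267 genes (RefSeq TAIR10.1). Simulated data with 200 changed genes, all at 5 CPM or more, checked the steps, and 100% were called in the right direction. The simulation gave every gene the same fixed dispersion, which was not estimated from these libraries. This share is therefore no estimate of the power of the comparison. Python 3.11.15 and matplotlib 3.10.9 made tables and figures. The authors' own fold changes entered no result and served only to check which libraries a comparison held.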

Additional observations from a re-analysis of the deposited data

How the results depend on the processing

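The total of 636 called genes became 380 with a pseudocount of 2 CPM, 401 with a filter at a mean of 5 CPM and 55 with adjusted p-values, and lay between 544 and 984 with a library left out. The 250 higher genes became 150 with a pseudocount of 2 CPM and lay between 204 and 497 with a library left out (497 without mock 3). The 386 lower genes became 230 with that pseudocount, 229 with the filter at 5 CPM, and 334 to 652 with a library left out (652 without IAA 3, 605 without mock 1). The 55 genes with an adjusted p under 0.05 became 115 with median-of-ratios factors and 314 with all 12 libraries in 1 fit, and lay between 0 and 635 with a library left out (0 without IAA 1 or IAA 2, 1 without mock 2, 13 without mock 3, 21 without IAA 3, 635 without mock 1). The 122 called list genes stayed between 92 and 148 under all settings. Of 136 named or called list genes, 24 lost their call with a pseudocount of 2 CPM and 9 to 17 with a library left out, and none changed direction. The median of the mitochondrial dysfunction list changed sign, with 0.06 under the filter at 5 CPM. The cause of these shifts was not tested.

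Deviations from the group mean in libraries of the same number gave r across genes of 0.04, -0.4 and 0.33. For libraries of different numbers, r reached 0.5 (IAA 2 with mock 1). Deviations from a mean of 3 libraries depend on each other, so these values cannot decide whether the numbers pair the libraries. A fit that took the library number as a replicate block called 720 genes, 270 higher and 450 lower, and 182 had an adjusted p under 0.05. All 136 named or called list genes kept their call in it.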
